A study of Rattus norvegicus with 12 samples.

Results

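Mitochondrial protein import genes were described across REST knockdown and control HCN cells, a line of hippocampal neural stem cells from the adult rat brain. Members were chosen by symbol: the Timm, Tomm and Chchd families, Samm50, Mtx1, Mtx2, the Grpel genes, Pam16, Pmpca and Pmpcb. The rule matched 33 of the 16468 genes listed. RNA-seq of total RNA depleted of ribosomal RNA covered 12 libraries in 4 groups. The groups were iQNP cells, grown with FGF2 and BMP4, which induces quiescence, with REST knockdown (4 libraries) or control (2 libraries), and TAP cells, which proliferate in FGF2 alone, with REST knockdown (4 libraries) or control (2 libraries). Knockdown cells were electroporated with a vector carrying a single short hairpin against Rest, and control cells with the empty vector, so every group was electroporated.

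The deposited tables hold 1 FPKM value per gene and group, made by the authors from all libraries of the group. FPKM counts sequenced fragments relative to transcript length and to all mapped fragments. Values of single libraries were not analysed here, and therefore neither an error nor a test accompanies any value, and depth per library cannot be read from these tables. Differences are therefore given as log2((REST knockdown FPKM + 1)/(control FPKM + 1)), a scale that understates differences of low genes, and "higher" or "lower" describes the group values only. A gene was counted as at least 2-fold higher or lower where this value reached 1 or -1 and the mean of both group values was at least 1 FPKM. Rest itself stood at 13.9 FPKM in knockdown iQNP cells, against 48.7 FPKM in iQNP controls, and at 9.002 FPKM in knockdown TAP cells, against 27.8 FPKM in TAP controls. Of 6 neural stem and progenitor markers 5 were listed, each above 1 FPKM in all 4 groups (17.3 to 3671 FPKM), while all 4 microglia and leukocyte markers and both listed endothelial markers lay below 1 FPKM in every group. Of 4 neuron markers 3 were listed, with sums of 181 FPKM in knockdown and 177 FPKM in control iQNP cells and of 112 FPKM in knockdown and 126 FPKM in control TAP cells. Of these, Tubb3 was higher (126 against 58.4 FPKM, and 58.9 against 21.4 FPKM) and Map2 lower in knockdown (47.9 against 110.5 FPKM, and 48.9 against 102 FPKM) in iQNP and TAP cells, and their part in the results was not tested.

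Nearly all mitochondrial proteins are made in the cytosol and enter through the TOM complex of the outer membrane. From there, the SAM complex inserts barrel proteins into the outer membrane, the TIM23 complex and its heat shock protein motor pull precursors with a presequence into the matrix, and small Tim chaperones carry hydrophobic precursors across the intermembrane space. Many small proteins with paired cysteines, among them several CHCHD proteins, are trapped in that space by oxidative folding on Chchd4. Many of them serve the respiratory chain or the cristae, the folds of the inner membrane.

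In iQNP cells 13 of the 30 members past the minimum level were at least 2-fold higher in REST knockdown than in control (43.3%), where the share over all 9586 genes was 14.4%. None was at least 2-fold lower, where the share over all genes was 3.15%. The median log2 ratio was 0.64 over the members and 0.00274 over all genes. In TAP cells 13 of 31 members were at least 2-fold higher (41.9%, with 15.4% over all 9309 genes) and none at least 2-fold lower (6.82% over all genes), with a median of 0.79 over the members and 0.00708 over all genes. Of these genes 12 were the same in both conditions, or 92.3% of the 13 in each: Timm23, Timm13, Chchd2, Grpel1, Timm10, Chchd4, Samm50, Chchd1, Chchd6, Timm17b, Tomm22 and Tomm40. The overlap over all genes was not counted, so this share has no background beside it and is not shown to be particular to the members. Timm17a passed in iQNP cells only (log2 ratio 1.09, and 0.79 in TAP cells), and Timm8a1 in TAP cells only. With groups scaled to the same sum of FPKM, the count of members at least 2-fold higher was 8 in each condition (7.92% and 7.01% of all genes in iQNP and TAP cells). On that scale 1 member in iQNP and 2 in TAP cells were at least 2-fold lower (20.9% and 26.0% of all genes). Of the members past 2-fold, 88.9% and 80% were then higher, against 100% on the deposited scale. Over all genes, more were higher than lower on the deposited scale, and more were lower than higher with the same sum. As these are bulk RNA values, a different share of cells of one type and a different amount of RNA per cell cannot be told apart.

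The members just inside the 2-fold limit were Timm17a in iQNP cells (1.09) and Tomm22 in TAP cells (1.02). Those just outside it were Chchd8 in iQNP cells (0.79) and Timm8b in TAP cells (0.91). Timm8a1 passed the minimum level in TAP cells through its knockdown value alone, and Timm8a2, Chchd10 and, in iQNP cells, Timm8a1 did not pass it. Those 3 iQNP members and 2 TAP members were the same ones that the authors' tables mark as having too few alignments.

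**Figure D1:**
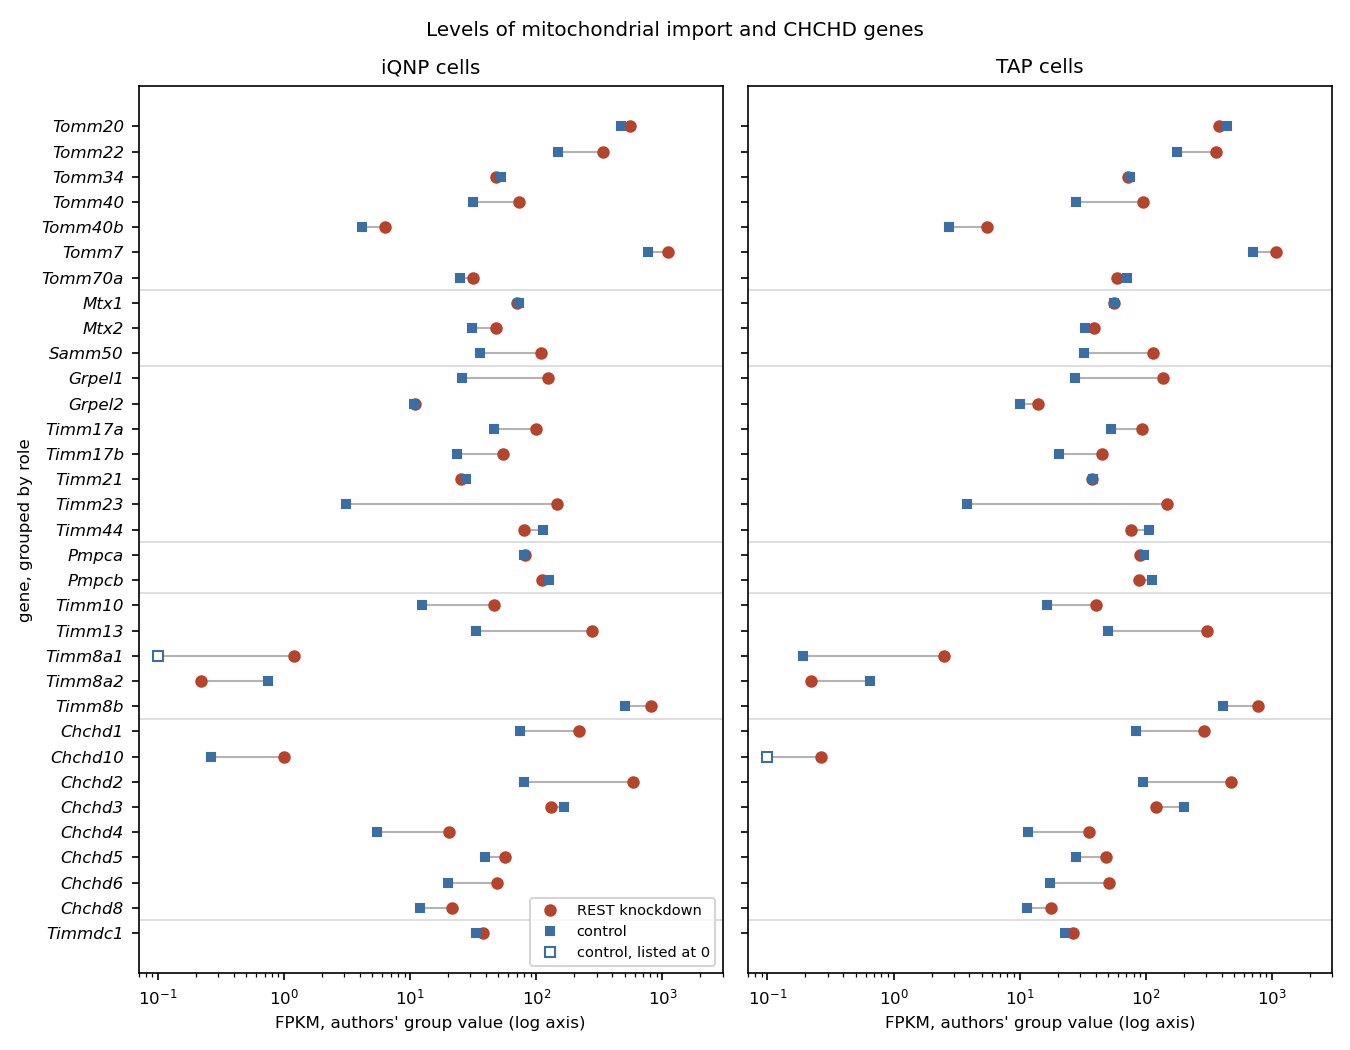
FPKM (log axis) of the 33 genes in iQNP (left) and TAP cells (right), with REST knockdown as circles and control as squares; each point is the authors' group value, open squares at the left edge mark control values listed at 0, and lines separate roles. The longest gap among genes above 1 FPKM in both groups belongs to Timm23, at 147 FPKM in knockdown and 3.12 FPKM in control iQNP cells.

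Among the 7 genes of the TOM complex and its helpers, the channel and its central receptor were the ones at least 2-fold higher on the deposited scale. Tomm40 (chromosome 1, 79008894 to 79020420 in rn4), which encodes the protein-conducting channel, stood at 72.6 FPKM in knockdown and 31.6 FPKM in control iQNP cells (log2 ratio 1.18), and at 94.4 FPKM in knockdown and 28.0 FPKM in control TAP cells (1.72). Tomm22 (chromosome 7, 117913210 to 117914960), the receptor that also organises the complex, stood at 336 against 148 FPKM in iQNP cells (1.18) and at 362 against 178 FPKM in TAP cells (1.02), knockdown first in each pair. With groups scaled to the same sum of FPKM, the ratio of Tomm40 was 0.66 in iQNP and 1.12 in TAP cells, and that of Tomm22 was 0.66 and 0.41. The presequence receptor Tomm20 showed no such gap, and its log2 ratio was 0.22 in iQNP and -0.22 in TAP cells (549 against 469.7 FPKM and 381 against 442 FPKM). Tomm70a, the receptor for carrier precursors, lay likewise at 0.34 and -0.26. Both receptors thus had a ratio of opposite sign in iQNP and TAP cells, but below 0 in both once groups were scaled to the same sum of FPKM.

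The remaining genes of this role lay between these values or close to 0. Tomm7, a small subunit that modulates the stability of the complex, was the most abundant of all 33 members in each group, at 1102 FPKM in knockdown and 762 FPKM in control iQNP cells (0.53) and at 1078 FPKM in knockdown and 704 FPKM in control TAP cells (0.62). Tomm40b, a paralogue of the channel gene, was scarce, with 2.77 to 6.31 FPKM over the 4 groups and log2 ratios of 0.50 and 0.80. Tomm34, a cytosolic cochaperone that delivers precursors, had ratios of -0.13 and -0.04.

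Samm50 (chromosome 7, 122176823 to 122201032), the core of the machinery that inserts barrel proteins into the outer membrane, stood apart from its partners. It reached 108 FPKM in knockdown and 35.4 FPKM in control iQNP cells (log2 ratio 1.58), and 113 FPKM in knockdown and 32.2 FPKM in control TAP cells (1.78). The metaxins, which work with Samm50, stayed short of the 2-fold limit. Mtx1 differed by -0.05 and -0.01, and Mtx2 by 0.60 and 0.25.

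**Figure D2:**
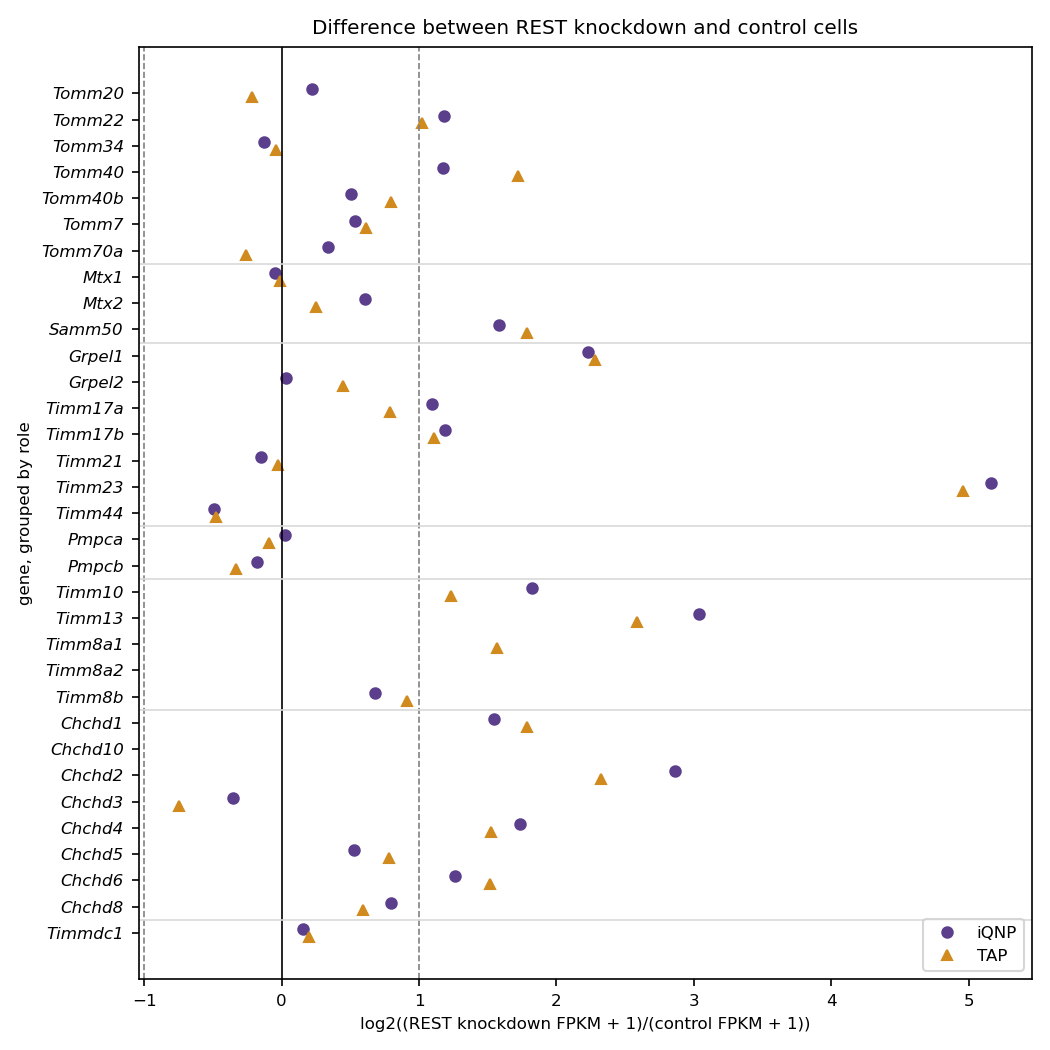
Log2((REST knockdown FPKM + 1)/(control FPKM + 1)) of each member past the minimum level, with circles for iQNP and triangles for TAP cells; dashed lines mark 2-fold, and 1 point is 1 pair of group values without an error. Timm23 lies farthest right at 5.17 and 4.96, no point lies at or left of -1 on the deposited scale, and Timm8a2 and Chchd10 have no point.

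In the presequence translocase, the channel subunit Timm23 (chromosome 16, 7663203 to 7689233) had the largest log2 ratio of all members in both conditions. It stood at 147 FPKM in knockdown and 3.12 FPKM in control iQNP cells (log2 ratio 5.17, place 63 from the top among 9586 genes) and at 148 FPKM in knockdown and 3.80 FPKM in control TAP cells (4.96, place 68 among 9309). Within the group of 33 its level was the 8th highest in both knockdown groups, and the 30th and 29th highest in iQNP and TAP controls. RefSeq names 8 pseudogenes of Timm23, more than for any other member, and reads that could be shared with such copies make its level uncertain.

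The partners of Timm23 differed less. Timm17a and Timm17b, alternative subunits beside the channel, both had values above the controls. Timm17a (chromosome 13, 48297515 to 48309303) stood at 98.9 against 45.8 FPKM in iQNP cells (1.09) and at 92.6 against 53.1 FPKM in TAP cells (0.79), knockdown first. Timm17b (chromosome X, 26630878 to 26637962) stood at 54.6 against 23.4 FPKM (1.19) and 45.4 against 20.5 FPKM (1.11), knockdown first. With groups scaled to the same sum of FPKM, neither passed 2-fold. Timm17a then had ratios of 0.57 in iQNP and 0.19 in TAP cells, and Timm17b of 0.67 and 0.52. Timm21, which links the translocase to the TOM complex and to respiratory complexes, had ratios of -0.15 and -0.03, and its listed locus overlaps that of Fbxo15. Timm44, the anchor of the import motor, had the lowest ratio in iQNP cells among members past the minimum level, at 79.99 FPKM in knockdown and 113 FPKM in control (-0.50), and had 76.0 FPKM in knockdown and 106 FPKM in control TAP cells (-0.48). Subunits of a single machine thus ranged from -0.50 to 5.17 in iQNP cells, where the upper end is Timm23 alone, whose level is uncertain.

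The paralogues Grpel1 and Grpel2, nucleotide exchange factors for the matrix heat shock protein of the motor, differed from each other in both conditions. Grpel1 (chromosome 14, 79873190 to 79878998) stood at 124 FPKM in knockdown and 25.6 FPKM in control iQNP cells (log2 ratio 2.23), and at 136 FPKM in knockdown and 27.3 FPKM in control TAP cells (2.28). Grpel2 stood at 10.9 FPKM in knockdown and 10.7 FPKM in control iQNP cells (0.03), and at 14.0 FPKM in knockdown and 10.01 FPKM in control TAP cells (0.45). RefSeq names no pseudogene of either. Pmpca and Pmpcb, the subunits of the matrix peptidase that cleaves presequences, had ratios between -0.33 and 0.03.

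The promoters of Timm23, Grpel1 and Grpel2 are shown because the first is the member with the largest log2 ratio and the others are the paralogues that part. The windows run from 250 bases before to 50 after the gene start and come from RefSeq, build GRCr8, each read 5′ to 3′ on the minus strand at chr16:7442570-7442869, chr14:78522819-78523118 and chr18:57450359-57450658. Capitals mark matches, on either strand, to the motif of NRF1, an activator of mitochondrial genes (GCGCA, then any base, then GCGC), and to CCGGAAG, a core motif of the ETS family.
Timm23: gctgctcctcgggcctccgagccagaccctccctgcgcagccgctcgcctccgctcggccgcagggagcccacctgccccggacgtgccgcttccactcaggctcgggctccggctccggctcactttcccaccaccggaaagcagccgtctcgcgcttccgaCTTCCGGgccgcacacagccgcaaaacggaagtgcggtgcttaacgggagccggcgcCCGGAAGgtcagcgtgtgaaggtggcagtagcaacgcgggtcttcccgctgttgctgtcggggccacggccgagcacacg
Grpel1: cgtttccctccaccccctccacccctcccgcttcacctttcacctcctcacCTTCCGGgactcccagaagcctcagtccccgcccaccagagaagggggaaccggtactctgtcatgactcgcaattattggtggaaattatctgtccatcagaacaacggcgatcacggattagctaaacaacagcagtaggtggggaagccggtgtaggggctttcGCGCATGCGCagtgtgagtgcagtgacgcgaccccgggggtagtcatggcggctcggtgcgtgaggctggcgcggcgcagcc
Grpel2: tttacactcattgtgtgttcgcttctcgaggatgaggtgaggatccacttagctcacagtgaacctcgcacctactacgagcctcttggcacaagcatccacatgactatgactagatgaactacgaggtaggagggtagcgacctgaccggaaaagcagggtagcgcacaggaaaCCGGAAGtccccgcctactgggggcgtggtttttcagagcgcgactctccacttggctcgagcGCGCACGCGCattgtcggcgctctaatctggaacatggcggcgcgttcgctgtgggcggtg
Timm23 has 2 ETS matches and no NRF1 match, while Grpel1 and Grpel2 each have 1 of both kinds.

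Promoter windows were found for 32 of the 33 members. The ETS motif was present in 16 of them (50%), in 8.75% of all 33469 windows of the same length and in 19.0% of the 8197 windows of genes past the minimum level in iQNP cells. The NRF1 motif was present in 6 (18.8%), in 4.25% of all windows and in 10.8% of those of genes past the minimum level. Among the 14 members at least 2-fold higher in either condition, 4 windows held the ETS motif and 2 the NRF1 motif, and among the other 18 the counts were 12 and 4. The RE1 motif, bound by REST, was searched as a single strict pattern. It was present in none of the 32 and in 18 of all windows (0.0538%), so a match among so few windows was unlikely beforehand. A search of 300 bases with such a pattern says nothing of looser matches or of sites elsewhere.

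Small Tim chaperones had 2 of 3 members past the minimum level at least 2-fold higher in iQNP cells and 3 of 4 in TAP cells. Over all genes the shares were 14.4% and 15.4%. The member added in TAP cells, Timm8a1, passed the minimum level through its knockdown value alone. Timm13 (chromosome 7, 10319958 to 10321062) had the second largest log2 ratio of the members past the minimum level, at 277 FPKM in knockdown and 32.9 FPKM in control iQNP cells (log2 ratio 3.03) and at 306 FPKM in knockdown and 50.2 FPKM in control TAP cells (2.59). With a pseudocount of 0.1, Timm8a1 stood above it in TAP cells (3.18 against 2.61 for Timm13). Timm10 (chromosome 3, 68036887 to 68040361), which forms the main carrier chaperone of the intermembrane space with Timm9, stood at 46.1 against 12.3 FPKM in iQNP cells (1.82) and at 40.2 against 16.6 FPKM in TAP cells (1.23), knockdown first. With groups scaled to the same sum of FPKM, the ratio of Timm10 was 1.31 in iQNP and 0.64 in TAP cells. RefSeq names no pseudogene of Timm13 or Timm10.

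The Timm8 genes spanned a wide range of levels. Timm8b was among the 3 most abundant members in each group, at 807 FPKM in knockdown and 503 FPKM in control iQNP cells (0.68) and at 773 FPKM in knockdown and 409.5 FPKM in control TAP cells (0.91). Timm8a1, the rat counterpart of the human gene mutated in deafness-dystonia syndrome and the partner of Timm13, was scarce, at 2.53 FPKM in knockdown and 0.190 FPKM in control TAP cells (1.57). The iQNP values were 1.21 FPKM in knockdown and a listed 0 in control. Timm8a2 lay below 1 FPKM in all 4 groups, at 0.217 FPKM in knockdown and 0.743 FPKM in control iQNP cells, and at 0.219 FPKM in knockdown and 0.653 FPKM in control TAP cells.

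A value listed at 0 in these tables may be a failed estimate. Of 94 genes with symbols of the ribosomal protein kind (mostly Rpl or Rps and a digit), 1 was listed at 0 in knockdown and 12 in control iQNP cells, and 1 in knockdown and 14 in control TAP cells. Symbols of this kind may take in other genes, and which of them were at 0 was not looked up. The values at 0 of Timm8a1 in iQNP controls and of Chchd10 in TAP controls are given as listed only.

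Of the 7 CHCHD genes past the minimum level, 4 were at least 2-fold higher in each condition (14.4% and 15.4% of all genes in iQNP and TAP cells). They were the same 4 in both, an overlap that was not counted over all genes. With groups scaled to the same sum of FPKM, Chchd1, Chchd2 and Chchd4 passed in iQNP cells and Chchd1 and Chchd2 in TAP cells. The shares over all genes were then 7.92% and 7.01%. On that scale Chchd6 lay at 0.75 and 0.92, and Chchd4 at 0.94 in TAP cells. Chchd2, which encodes a protein of mitochondria and nucleus involved in respiration and stress responses, stood at 582 FPKM in knockdown and 79.0 FPKM in control iQNP cells (log2 ratio 2.87), and at 479 FPKM in knockdown and 94.5 FPKM in control TAP cells (2.33). It was the 9th most abundant member in both control groups and the 3rd in both knockdown groups. Chchd1 (chromosome 15, 3818168 to 3819351), a protein of the mitochondrial ribosome's small subunit, stood at 218 against 73.9 FPKM in iQNP cells (1.55) and at 290.5 against 83.6 FPKM in TAP cells (1.78), knockdown first.

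The locus listed as Chchd2 needs care. It lies on chromosome 9 (93253930 to 93254597 in rn4) and spans only 668 bases. RefSeq places its Chchd2 gene on another chromosome and gives the gene on chromosome 9 the symbol Chchd2l3, with Chchd2 as an older name. It names 8 genes whose symbols start with Chchd2, of which 2 are protein coding, 5 pseudogenes and 1 a long noncoding RNA. How reads of these copies were divided is not stated, so the value listed for Chchd2 may hold reads of several copies. The RefSeq gene of that name on the other chromosome was not analysed here.

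Chchd4 (chromosome 4, 125647268 to 125656403), the oxidoreductase that folds paired-cysteine proteins on entry, stood at 20.3 FPKM in knockdown and 5.41 FPKM in control iQNP cells (log2 ratio 1.74), and at 35.5 FPKM in knockdown and 11.7 FPKM in control TAP cells (1.52). The pair of CHCHD subunits of MICOS, the complex that shapes cristae junctions, parted in both conditions. Chchd6 (chromosome 4, 123458140 to 123681700) stood at 49.0 against 19.8 FPKM in iQNP cells (1.26) and at 51.5 against 17.4 FPKM in TAP cells (1.51), knockdown first. Chchd3 stood at 130.2 FPKM in knockdown and 166.5 FPKM in control iQNP cells (-0.35), and at 119.5 FPKM in knockdown and 201 FPKM in control TAP cells (-0.75), the lowest ratio in TAP cells among members past the minimum level. Both loci are long, 223561 and 279290 bases.

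The other CHCHD genes were closer to 0. Chchd5, another protein with paired cysteines, had log2 ratios of 0.53 in iQNP and 0.78 in TAP cells, and Chchd8, now named Coa4 and an assembly factor of cytochrome c oxidase, of 0.79 (21.6 FPKM in knockdown, 12.03 FPKM in control) and 0.60 (17.8 FPKM in knockdown, 11.4 FPKM in control). Chchd10, the paralogue of Chchd2, lay below 1 FPKM in each group, at 0.992 FPKM in knockdown and 0.261 FPKM in control iQNP cells, and at 0.268 FPKM in knockdown and listed at 0 in control TAP cells. Timmdc1, which the rule matched by name and which is an assembly factor of complex I, had ratios of 0.16 and 0.20.

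Comparing the conditions, 27 of the 30 members past the minimum level in both had a ratio of the same sign in iQNP and TAP cells, and 85.2% of the 9174 genes past it in both. The exceptions were Tomm20, Tomm70a and Pmpca. The difference between the log2 ratios (TAP minus iQNP) ran from -0.60 for Tomm70a to 0.54 for Tomm40, with a median of -0.03. These differences were not tested. The tables were normalised separately, so levels in TAP and iQNP cells are only set side by side: in controls, Tomm70a stood at 71.2 FPKM in TAP and 24.6 FPKM in iQNP cells and Chchd4 at 11.7 and 5.41 FPKM.

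Gene span moved with the difference over all genes. In iQNP cells, 34.5% of genes spanning up to 5000 bases were at least 2-fold higher in knockdown, and 3.22% of those over 50000 bases. In TAP cells the shares were 32.8% and 4.56%. Among the members the counts, from the shortest class to the longest, were 5 of 10, 5 of 12, 2 of 4 and 1 of 4 in iQNP cells, and 6 of 11, 4 of 12, 2 of 4 and 1 of 4 in TAP cells. Over all genes the shares in the middle classes were 19.9% and 7.45% in iQNP cells, and 21.1% and 9.27% in TAP cells. In the class over 5000 to 20000 bases, the median of the members lay 0.07 above that of all genes in iQNP cells (0.38 and 0.30) and 0.22 above it in TAP cells (0.53 and 0.31). In the class up to 5000 bases it lay 0.44 and 0.52 above, in that over 20000 to 50000 bases 1.07 and 1.09 above, and in that over 50000 bases 0.70 and 0.44 above, the last 2 classes resting on 4 members each. The part of gene length in these differences was not tested.

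**Figure D3:**
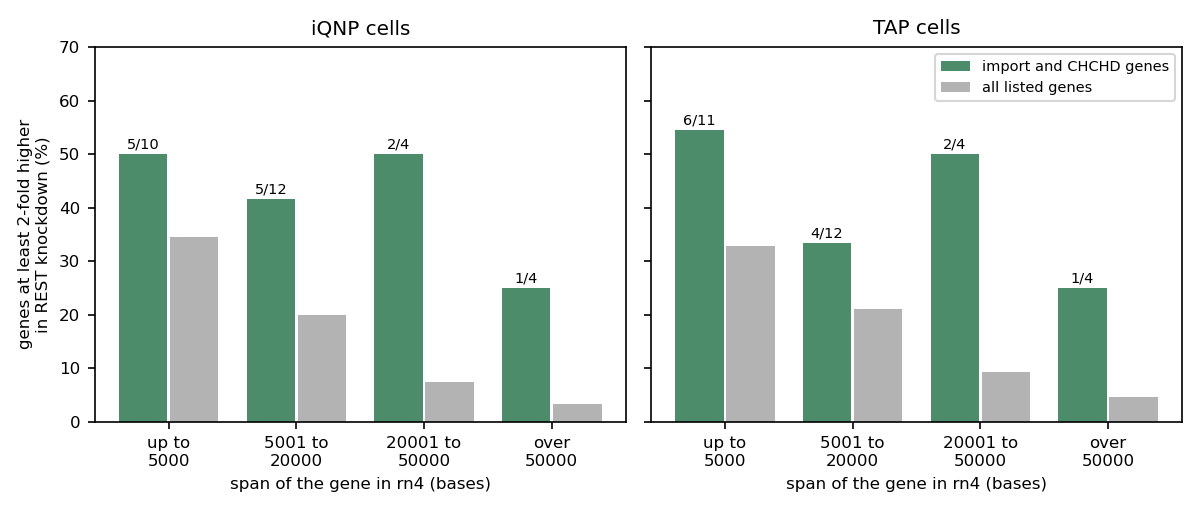
Share of genes at least 2-fold higher in REST knockdown (percent) by span of the gene in rn4 (bases), with import and CHCHD genes in green and all listed genes in grey, both past the minimum level; numbers above the green bars are counts of members. The grey bars fall with span, from 34.5% to 3.22% in iQNP cells, and the green bars rest on 4 to 12 genes each.

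Named pseudogenes were counted for the members and for all genes. Of the members past the minimum level, 8 in iQNP cells had at least 1 named pseudogene, of which 2 (Timm23 and Chchd4) were at least 2-fold higher, and 22 had none, of which 11 were. In TAP cells 3 of 9 with and 10 of 22 without one were at least 2-fold higher. Pseudogenes were matched by symbol, and Chchd2 stands among those without one although RefSeq names 5 among its copies. Leaving it out gave 10 of 21 in iQNP and 9 of 21 in TAP cells. Over all genes the shares were 27.6% with and 12.2% without in iQNP cells, and 26.7% and 13.5% in TAP cells. Timm23, with 8 named pseudogenes, had the largest log2 ratio, while Tomm7, with 4, and Tomm20, with 2, were not among the higher members. The part of pseudogenes in these differences was not tested.

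The total FPKM differed between groups, 1058055 in knockdown and 734692 in control iQNP cells, and 1014737 in knockdown and 665644 in control TAP cells. Scaling to the same total shifts the log2 ratio of FPKM by -0.53 in iQNP and -0.61 in TAP cells, and that of low genes by less once the pseudocount is added, and it moves the median of all genes to -0.47 and -0.53. On that scale Timm44 in both conditions and Chchd3 in TAP cells were the members at least 2-fold lower. Timm23, Timm13, Chchd2, Grpel1, Samm50 and Chchd1 were among the higher members in both conditions under it. The ratios of Grpel2, Pmpca, Timmdc1, Tomm20 and Tomm70a in iQNP cells, and of Grpel2, Mtx2 and Timmdc1 in TAP cells, turned from above to below 0.

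**Figure D4:**
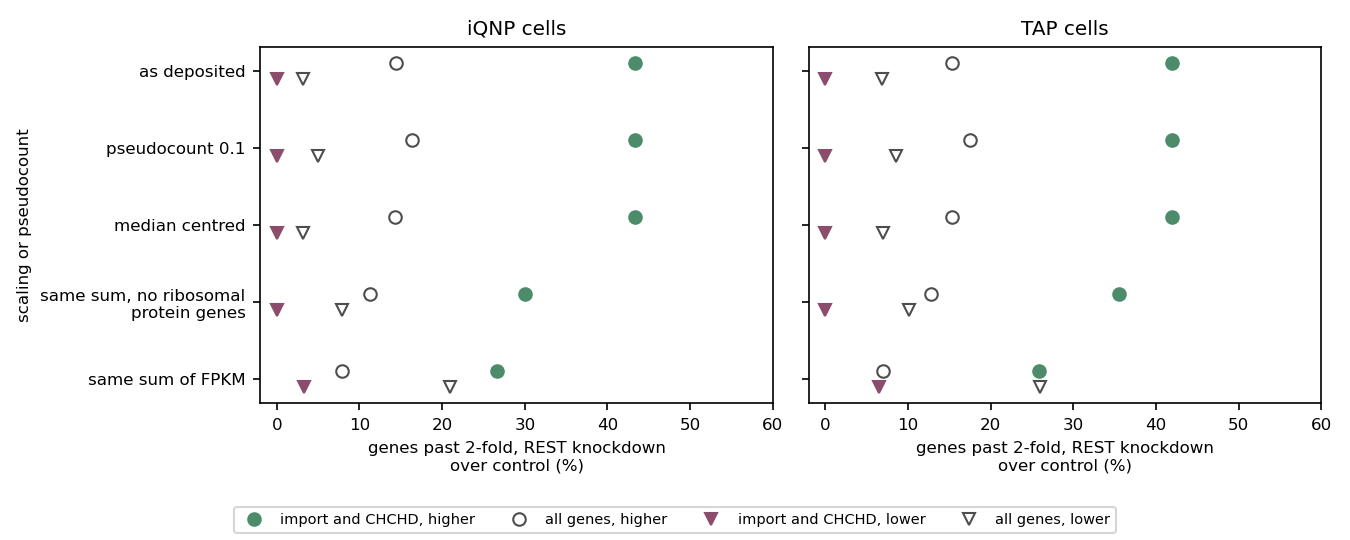
Share of genes past 2-fold (percent, REST knockdown over control) under 5 settings of scaling or pseudocount, in iQNP (left) and TAP cells (right); circles are higher and triangles lower, filled for import and CHCHD genes and open for all genes. The share of higher members is 43.3% and 41.9% as deposited and rests on 8 genes in each condition with the same sum of FPKM.

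Partners of import outside the rule were described from 3 lists. Over all genes 14.4% in iQNP and 15.4% in TAP cells were at least 2-fold higher. On the matrix side, 2 of 9 listed genes were at least 2-fold higher in iQNP and 3 of 9 in TAP cells, with medians of 0.17 and -0.06. Hspe1, the small matrix chaperonin, stood at 489 FPKM in knockdown and 124 FPKM in control iQNP cells (log2 ratio 1.97) and had 1.60 in TAP cells, and Romo1, a small inner membrane protein, had 1.14 and 1.36. Dnajc15, a cochaperone of the motor, had the lowest ratio in TAP cells (-0.79) and the presequence-degrading peptidase Pitrm1 the lowest in iQNP cells (-0.72). Magmas, an older symbol of the motor subunit Pam16 that the rule did not match, was added after its values were seen, at 290.8 against 160.6 FPKM in iQNP cells (0.85) and 232 against 97.5 FPKM in TAP cells (1.24), knockdown first.

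Among contact site and relay partners, 1 of 10 was at least 2-fold higher in iQNP and 1 of 9 in TAP cells, Mtch1, an outer membrane protein of the carrier family (1.47 and 1.71). The median was 0.13 and 0.11, close to that of all genes. The next highest were Mtch2 in iQNP (0.59) and Gfer, which reoxidises Chchd4, in TAP cells (0.33). The lowest were Opa1, the fusion protein of the inner membrane, in iQNP (-0.55) and Minos1, a core subunit of MICOS, in TAP cells (-0.49). Immt, another core MICOS subunit, lay below 0 like Chchd3, at -0.37 and -0.31, and was named after its values were seen.

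Other small intermembrane space proteins with paired cysteines had 5 of 8 listed genes at least 2-fold higher in iQNP and 6 of 8 in TAP cells, with medians of 1.58 in both. Ndufs5, a complex I subunit with 2 named pseudogenes, was the highest in both, at 278 FPKM in knockdown and 18.8 FPKM in control iQNP cells (3.82) and 288 FPKM in knockdown and 15.5 FPKM in control TAP cells (4.13). Next came Cmc1, an assembly factor of cytochrome c oxidase, in iQNP (2.12) and the complex I subunit Ndufb7 in TAP cells (2.85). Coa5 was the lowest in iQNP (-0.38) and Cox17, the copper chaperone, in TAP cells (-0.94). Set beside these, 18 of 66 mitochondrial ribosomal protein genes and 19 of 37 complex I genes with Nduf symbols were at least 2-fold higher in iQNP cells, and 15 of 66 and 19 of 37 in TAP cells, where 2 and 1 were at least 2-fold lower (6.82% of all genes). Ndufa8, Ndufb7 and Ndufs5 were counted both among the genes with paired cysteines and among the complex I genes. All of them were at least 2-fold higher in both conditions, so these groups overlap. No difference between these groups of genes was tested.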

How the data were processed

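HCN cells gave 12 RNA-seq libraries, made after removal of ribosomal RNA. The authors mapped reads to rat build rn4 with TopHat2 and compared groups with Cuffdiff, per the labels, and versions are not given in the sources used here. The authors deposited 1 FPKM value per gene and group in 1 table per condition, pooled over 4 knockdown or 2 control libraries and marked as revised. Each table also holds the authors' fold change, test statistic, p-value, q-value and mark of significance, none of which were used. The tables used here do not give depth per library. Groups came from the labels.

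Log2 ratios used a pseudocount of 1 and a minimum mean of 1 FPKM. As 1 value per group was used, no test was run. Members and lists were chosen with earlier results of these data known. The text gives all members, and of each list the 2 highest and the lowest ratios. Names, pseudogenes and promoters came from RefSeq tables of GRCr8. Protein length and cysteine motifs were planned and not run, as no protein table was used here, and gene span was used in their place. Alternatives varied the pseudocount, minimum, fold, scaling and members. Calculations used Python 3.11.15, numpy 2.4.6 and pandas 2.3.3, and figures matplotlib 3.10.9, and were tested on simulated data.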

Additional observations from a re-analysis of the deposited data

How the results depend on the processing

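The results rest on 1 value per group, so depth and the spread between libraries limit every comparison and leaving out libraries was not run. No paired analysis was possible because the tables hold no values per library. With the same sum of FPKM, 8 members in iQNP and 8 in TAP cells were at least 2-fold higher, 1 and 2 were lower, and the medians were 0.12 and 0.19. Counting a change of at least 3-fold left 6 and 7 higher members (6.89% of all genes in each condition). A limit of at least 1.5-fold gave 16 of 30 and 19 of 31 higher members (24.8% and 26.4% of all genes). That limit also gave 1 lower member in TAP cells, Chchd3 (20.3% of all genes). The median in iQNP cells was 0.94 over the 22 members without a pseudogene named after their symbol, Chchd2 included, and 0.79 without Chchd2. The cause was not tested. Under the other alternatives (a pseudocount of 0.1, no minimum or 5 FPKM, the same sum without ribosomal protein genes, median centring) counts stayed within 1.5 times and medians within 0.25. The same held, in an alternative chosen after seeing the data, without copies and overlapping genes, with 10 of 21 members higher in iQNP and 9 of 21 in TAP cells. The members left in it are those without a named pseudogene and without Chchd2 given above, so it is not a separate check. No member past 2-fold changed sign under the pseudocount or any scaling, but none could have. A pseudocount cannot turn a sign, and the largest shifts from scaling, -0.53 in iQNP and -0.61 in TAP cells, are smaller than the 2-fold limit.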
